A study of Mus musculus with 15 samples.

Results

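The genes described here are 9 writers and erasers of H3K27 methylation, namely Ezh2, Ezh1, Eed, Suz12, Rbbp4, Jarid2, Mtf2, Phf19 and Kdm6b, out of 20661 protein-coding genes on the 19 mouse autosomes. They were chosen by name and not by a value measured in this series. For each gene the RefSeq span on GRCm38 was taken with 10 kb on each side, and the called intervals in that window were collected from every list. The chromatin of EL4 cells, a murine T cell lymphoma line of the strain C57BL/6N, was mapped by ATAC-seq and by ChIP-seq against 5 histone marks, H3K27me3, H3K36me2, H3K27ac, H3K9ac and H3K4me3, with 2 replicates each. The cells were kept in RPMI medium, and the labels give no treatment, genotype or time contrast among these libraries. The methods of the study call the replicates technical, so the spread between them holds no variation between cultures.

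Polycomb repressive complex 2 (PRC2) places methyl groups on lysine 27 of histone H3, and trimethylated H3K27 marks silenced genes. EZH2 and EZH1 are alternative catalytic subunits, EED binds the trimethylated product, SUZ12 holds the complex together, and RBBP4 binds histones. JARID2, MTF2 and PHF19 are accessory subunits that help to bring the complex to chromatin, and KDM6B (JMJD3) removes the methyl groups. H3K4me3, H3K9ac and H3K27ac are found at starts of active genes, ATAC-seq marks open DNA, and H3K36me2 spreads over gene bodies and intergenic DNA.

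The lists hold positions only, with no score or read count, so the depth behind an interval is unknown and a missing interval does not show that a mark is absent. They contain between 17519 and 46015 intervals each. As a check of the cell type, 6 of 6 T cell genes (Cd3e, Cd3d, Cd3g, Cd247, Lck and Thy1) had H3K4me3, H3K9ac and H3K27ac at the start in both replicates, and 4 of 6 had ATAC-seq there. The B cell genes Cd79a, Pax5 and Ms4a1 had none of these in either replicate. Of 4 myeloid genes (Csf1r, Lyz2, Itgam and Spi1), Spi1 alone had all of the 3 marks in both replicates, and Lyz2 had H3K27ac in 1 replicate.

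Promoter sequence, the 250 bases before the gene start in the RefSeq table of GRCm38.p6, was found for 8 of the 9 members, with 10 starts in all, and not for Kdm6b. The sequences below are those of the core subunits Ezh2, Eed and Suz12, of Phf19, and of both starts of Mtf2, whose chromatin differs. They read 5′ to 3′ on the strand of the gene, and capitals mark matches on either strand to the motifs named after them, other than the GC and TATA boxes. On GRCm38.p6 they are chr6:47595031-47595280 (minus strand), chr7:89980977-89981226 (minus), chr11:79992856-79993105 (plus), chr2:34913977-34914226 (minus), chr5:108065424-108065673 (plus) and chr5:108077915-108078164 (plus), in the order shown.
Ezh2 promoter: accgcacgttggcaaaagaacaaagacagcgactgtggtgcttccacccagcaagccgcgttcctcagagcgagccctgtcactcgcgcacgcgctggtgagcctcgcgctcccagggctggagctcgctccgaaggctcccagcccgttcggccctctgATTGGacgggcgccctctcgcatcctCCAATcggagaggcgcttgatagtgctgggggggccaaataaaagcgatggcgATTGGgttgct
Eed promoter: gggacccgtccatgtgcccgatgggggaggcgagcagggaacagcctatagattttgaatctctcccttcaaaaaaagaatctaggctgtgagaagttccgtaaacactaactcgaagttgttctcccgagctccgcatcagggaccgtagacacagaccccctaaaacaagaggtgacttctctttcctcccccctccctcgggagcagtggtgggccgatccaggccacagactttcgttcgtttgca
Suz12 promoter: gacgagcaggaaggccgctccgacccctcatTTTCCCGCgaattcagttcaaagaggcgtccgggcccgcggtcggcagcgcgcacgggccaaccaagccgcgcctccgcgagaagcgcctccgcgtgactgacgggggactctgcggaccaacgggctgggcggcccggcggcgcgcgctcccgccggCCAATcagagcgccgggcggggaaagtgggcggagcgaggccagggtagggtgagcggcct
Phf19 promoter: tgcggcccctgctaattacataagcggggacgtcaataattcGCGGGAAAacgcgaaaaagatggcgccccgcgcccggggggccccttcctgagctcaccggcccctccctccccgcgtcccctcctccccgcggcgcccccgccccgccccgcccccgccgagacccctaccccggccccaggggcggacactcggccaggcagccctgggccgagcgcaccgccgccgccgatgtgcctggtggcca
Mtf2 promoter, first start: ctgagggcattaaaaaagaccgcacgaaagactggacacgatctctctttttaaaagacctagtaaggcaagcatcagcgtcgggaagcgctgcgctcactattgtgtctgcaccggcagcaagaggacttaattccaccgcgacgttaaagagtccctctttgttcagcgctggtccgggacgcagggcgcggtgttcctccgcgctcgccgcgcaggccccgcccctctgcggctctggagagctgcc
Mtf2 promoter, second start: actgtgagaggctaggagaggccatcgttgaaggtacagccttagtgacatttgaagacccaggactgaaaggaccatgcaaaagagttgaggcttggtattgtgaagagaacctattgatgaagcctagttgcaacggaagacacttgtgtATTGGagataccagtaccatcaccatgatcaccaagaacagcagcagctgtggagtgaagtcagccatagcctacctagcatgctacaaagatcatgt

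Of these 6 promoters, 5 lay wholly inside H3K4me3 intervals in both replicates, and that of the second start of Mtf2 shared no base with one. The Suz12 promoter was the richest in CG dinucleotides among the members, with 37, more than 97.8% of the 32851 promoters in the table, which have a median of 6. The promoters of Phf19 and Rbbp4 had 31 and 30, that of Ezh2 had 23, Ezh1 had 14 and Eed had 12. The second start of Mtf2 had 2. The motif TTTCCCGC, which fits the consensus of E2F factors, was found in the Suz12 promoter (positions -219 to -212, counted from the base before the start as -1) and in that of Phf19 (-208 to -201). Of all promoters, 0.895% hold it. The other E2F form, TTTGGCGC, was in none of the 10 member promoters and in 0.417% of all. CCAAT stood 3 times in the Ezh2 promoter, at -90 to -86, -64 to -60 and -11 to -7, which is a number reached by 2.79% of promoters. It occurred at least once in 5 of the 10 member promoters and in 33.8% of all. The E-box CACGTG was in 1 of 10, that of Rbbp4 (6.02% of all), the ETS motif CCGGAAG was in none (6.91% of all), and the palindromic NRF1 motif was in none (0.782% of all). The GC box GGGCGG, not capitalised above, was in 6 of 10 (32.7% of all), and TATAAA was in 1 of 10 (12.4% of all), at the second start of Jarid2. GC boxes overlapped by 1 base with each other in the Phf19 promoter, and no other matches overlapped. These matches describe letters, and binding was not measured.

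At the gene starts, 9 of 9 members carried H3K4me3, H3K9ac, H3K27ac and ATAC-seq intervals, each in both replicates. A start was counted when an interval shared at least 1 bp with the window from 3 kb upstream to 2 kb downstream, and for Kdm6b, which had no entry in the promoter table, either end of the span was used. Among all 20661 genes, the percentage with such an interval in both replicates was 47% with H3K4me3, 46.4% with H3K9ac, 46.7% with H3K27ac and 42.4% with ATAC-seq, and 41.6% had all 4. In the wider window of the span and 10 kb on each side, 9 of 9 members had each of these in both replicates as well, where the percentages of all genes were 58.7% with H3K4me3, 57.3% with H3K9ac, 58.6% with H3K27ac and 54.7% with ATAC-seq. The ATAC-seq intervals at the start lay wholly inside H3K4me3 intervals in 9 of 9 members in both replicates. Of the 8605 genes with all 4 at the start, 89.9% showed this in replicate 1 and 88% in replicate 2. The ATAC-seq intervals lay wholly inside H3K27ac in 7 of 9 members in each replicate, beside 70.1 and 69.3% of these genes. Neither count sets the members apart.

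**Figure D1:**
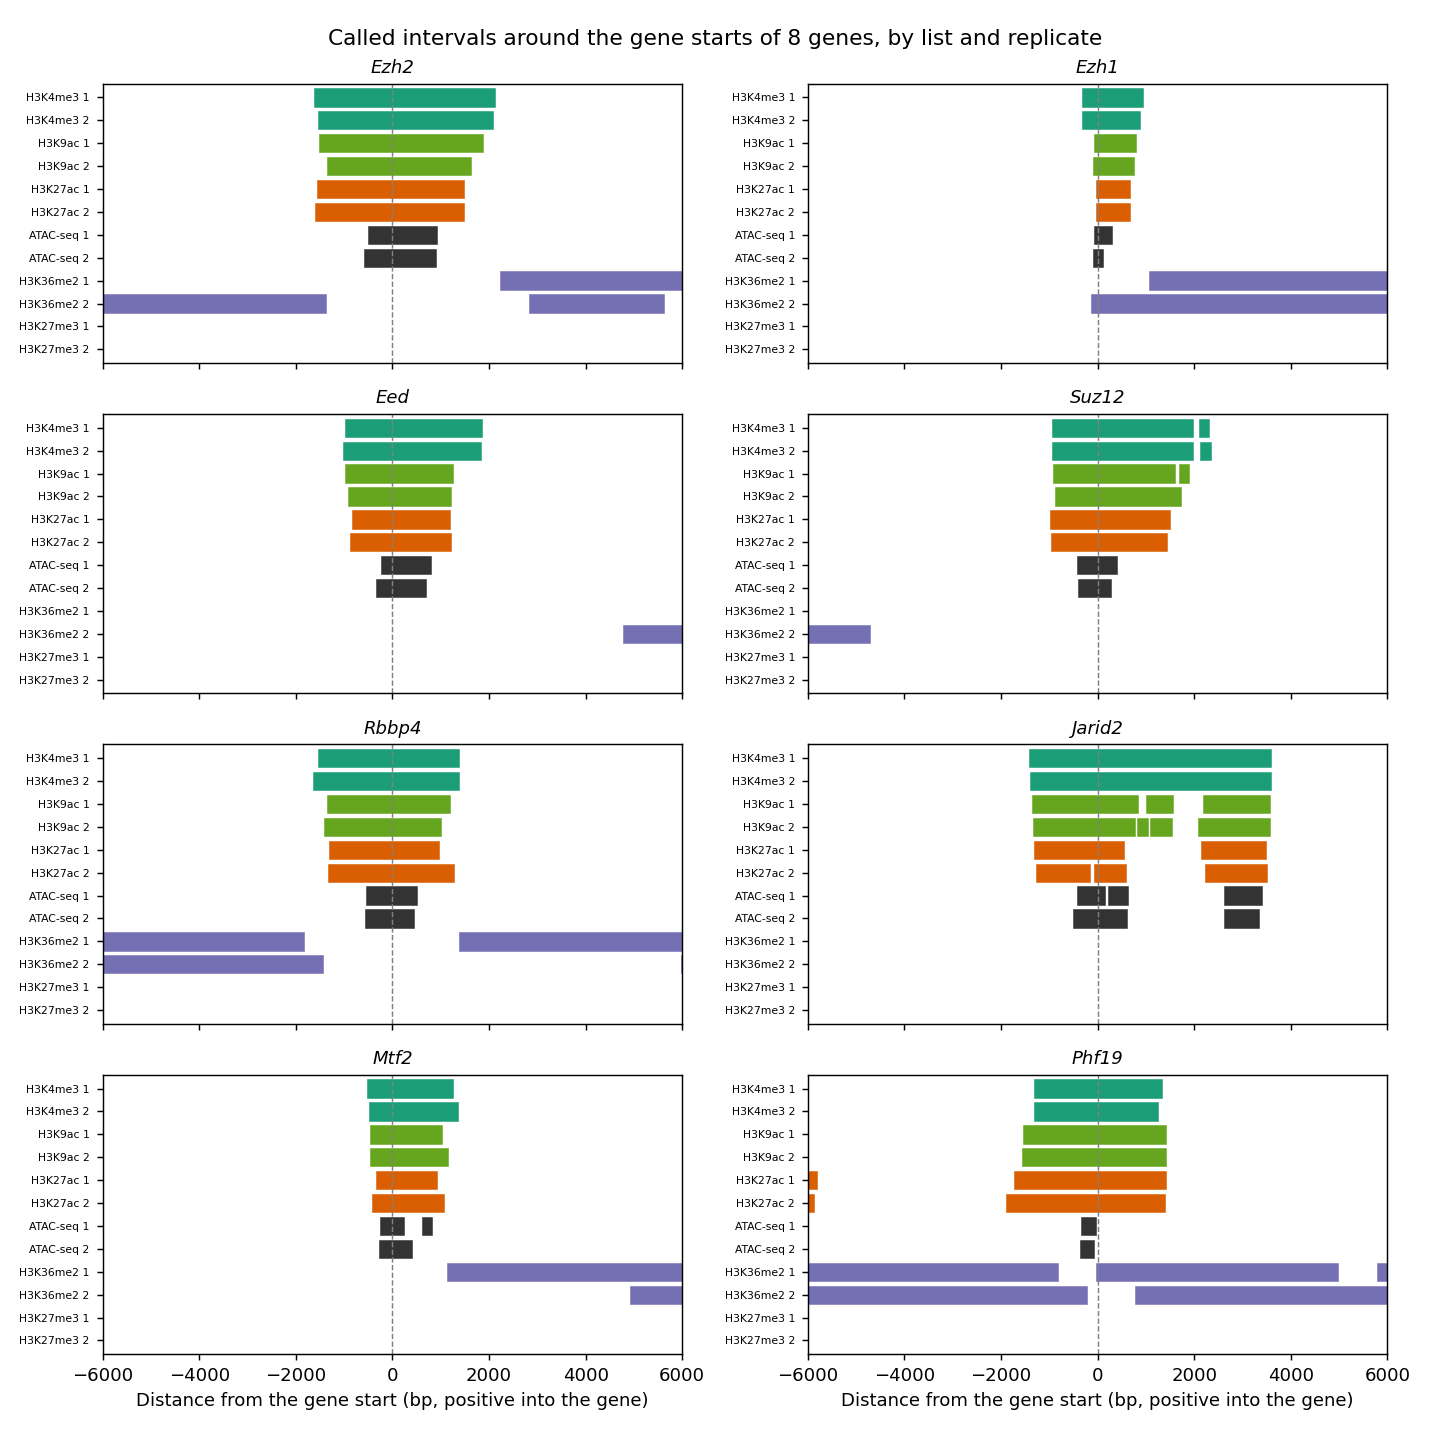
Called intervals around the first gene start of the 8 members with a start in the promoter table, drawn in bp from the start (positive into the gene), with 1 row for each list and replicate (1 or 2). H3K4me3, H3K9ac, H3K27ac and ATAC-seq intervals lie at the start of all 8 genes, H3K36me2 crosses the start line at Ezh1 in replicate 2 and at Phf19 in replicate 1, and H3K27me3 has no interval in these panels.

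The catalytic subunits differed in the size of their marked start. At Ezh2, on chromosome 6 from 47530274 to 47595270 on the minus strand, the H3K4me3 interval was 3743 bp wide in replicate 1 and 3617 bp in replicate 2. At Ezh1, on chromosome 11 from 101191115 to 101226463 on the minus strand, it was 1270 and 1194 bp. The replicates of the genes did not overlap in this width, and the difference was larger than the spread between replicates (SD 89.1 bp at Ezh2 and 53.7 bp at Ezh1, n = 2). Both genes were read in the same 2 libraries, so their replicates are paired by library, and no test is given for such pairs of genes. Ezh2 was wider than 90.3% of the 9720 genes with H3K4me3 at the start in both replicates, and Ezh1 was wider than 10.3%.

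The same order held for the other assays at these starts. H3K9ac spanned 3385 and 2982 bp at Ezh2 and 880 and 855 bp at Ezh1. H3K27ac spanned 3043 and 3078 bp at Ezh2 and 721 and 709 bp at Ezh1. The ATAC-seq interval measured 1431 and 1487 bp at Ezh2, against 357 and 200 bp at Ezh1. The start of Ezh2 is shared, since a lncRNA gene, F830010H11Rik, begins 179 bp upstream on the other strand inside the same H3K4me3 and ATAC-seq intervals. The part of either gene in these widths cannot be told apart.

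Ezh1 had further intervals inside the gene that Ezh2 lacked. A second H3K4me3 interval was found from 31268 bp downstream of the start, 1032 bp wide in replicate 1 and 1101 bp in replicate 2, near the far end of the 35349 bp span. H3K27ac surrounded it with intervals of 1109 and 827 bp in replicate 1 and with 1 interval of 2020 bp in replicate 2. Another site, from 25298 bp downstream in replicate 1 and 25344 bp in replicate 2, carried H3K27ac of 667 and 1150 bp, H3K9ac of 378 and 273 bp, and ATAC-seq intervals of 341 and 483 bp, but no H3K4me3. The ATAC-seq interval at the H3K4me3 site (217 bp) was called in replicate 1 only. The gene Cntnap1 lies 390 bp beyond the far end of Ezh1. In contrast, the only intervals of H3K4me3, H3K9ac, H3K27ac and ATAC-seq in the Ezh2 window were those at the start.

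Eed and Suz12, the non-catalytic core subunits, had starts of similar width. At Eed, on chromosome 7 from 89954654 to 89980976 on the minus strand, H3K4me3 intervals were 2828 and 2848 bp wide, and those of H3K27ac were 2027 and 2087 bp. At Suz12, on chromosome 11 from 79993106 to 80034123 on the plus strand, the H3K4me3 interval at the start was 2906 and 2912 bp wide, followed by a small one of 208 and 229 bp outside the counted window. H3K27ac at Suz12 was 2498 and 2395 bp wide. ATAC-seq intervals extended over 1034 and 1023 bp at Eed and over 835 and 689 bp at Suz12, so that Eed was the wider by ATAC-seq although Suz12 was the wider by H3K4me3. Neither window holds another gene of the table.

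Rbbp4, the histone-binding subunit, lies on chromosome 4 from 129307100 to 129335370 on the minus strand. Its H3K4me3 interval measured 2933 and 3034 bp and its ATAC-seq interval 1056 and 1009 bp. The listed start of the neighbour Zbtb8os lies 598 bp away on the other strand, inside the H3K4me3 interval, which begins 1544 and 1647 bp upstream of the Rbbp4 start. That listed start lies just outside the ATAC-seq interval, which begins 540 and 565 bp upstream. The span of Zbtb8os begins nearer, 161 bp beyond that of Rbbp4, and inside the ATAC-seq interval in both replicates. The part of either gene in these shared intervals cannot be told apart.

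Among the accessory subunits, Jarid2 had the widest start by H3K4me3, H3K9ac and ATAC-seq. By H3K27ac its summed width (3218 and 3056 bp) overlapped with that of Phf19 (3146 and 3295 bp). Jarid2 spans 190870 bp on chromosome 13 from 44730774 to 44921643 on the plus strand, and the table gives 2 starts, 497 bp apart. One unbroken H3K4me3 interval of 4998 bp in replicate 1 and 4987 bp in replicate 2 (SD 7.78 bp, n = 2) covered both, which is wider than at 96.8% of genes. H3K9ac and H3K27ac were split there. H3K27ac had a block around the starts and another from 2131 bp (replicate 1) and 2228 bp (replicate 2) downstream, of 1357 and 1288 bp. ATAC-seq followed this split, with intervals of 782 and 723 bp inside the downstream block, from 2615 and 2611 bp downstream. An isolated H3K4me3 interval of 627 and 543 bp was found about 69 kb into the gene, at 69176 and 69253 bp. It carried no H3K9ac or H3K27ac interval and an ATAC-seq interval of 200 bp in replicate 1 only.

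Mtf2 and Phf19 encode Polycomb-like proteins, and the mean width of ATAC-seq at their starts was below that of the core subunits other than Ezh1, though for Mtf2 and Suz12 the replicates overlapped. Mtf2 spans chromosome 5 from 108065660 to 108109219 on the plus strand and has 2 listed starts, 12491 bp apart. The first one had an H3K4me3 interval of 1782 and 1845 bp, wider than at 38.8% of genes, and ATAC-seq intervals of 695 bp in sum and 673 bp. The second one, whose promoter is printed last above, had no interval of H3K4me3, H3K9ac, H3K27ac or ATAC-seq over its 250 bases in either replicate and was wholly covered by H3K36me2 in both. Phf19, on chromosome 2 from 34893752 to 34914353 on the minus strand, combined wide acetylation intervals with a narrow ATAC-seq interval at the start. H3K27ac was 3146 and 3295 bp wide, wider than at 88.0% of the 9648 genes with H3K27ac at the start. The ATAC-seq interval was 297 and 288 bp wide, wider than at 3.43% of the 8756 genes with one. A further ATAC-seq interval of 217 bp, in replicate 2 only, began 6452 bp upstream. Phf19 was also the member at which H3K27ac was wider than H3K4me3 (2648 and 2575 bp) in both replicates.

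Across the 8 members with a listed start, the median H3K4me3 width was 2867 and 2880 bp in the replicates, against 2041 and 2019 bp over all genes with such an interval. The medians of H3K9ac were 2641 and 2516.5 bp against 1729 and 1731 bp. Those of H3K27ac were 2385.5 and 2501 bp against 1701 and 1734.5 bp, and those of ATAC-seq were 928 and 849 bp against 655 and 720 bp. The medians over all genes include genes without a listed start, for which intervals at both span ends were summed. The members and all genes were therefore not measured quite alike, which also holds for the percentages of narrower genes above. H3K4me3 was wider than H3K9ac at 7 of 8 starts in each replicate, Phf19 being the exception, beside 93.5 and 92.7% of the 7021 genes with a listed start and all 4 assays there. H3K27ac was wider than ATAC-seq at 8 of 8 in each replicate, beside 98.5 and 97.9% of these genes. H3K9ac was wider than H3K27ac at 7 starts in replicate 1 and 5 in replicate 2, beside 59.5 and 55.1%. Replicates placed the narrow intervals alike, with a Jaccard index (base pairs in both replicates over base pairs in either) per window of 0.936 to 0.991 for H3K4me3, 0.689 to 0.994 for H3K9ac and 0.684 to 0.989 for H3K27ac. For ATAC-seq it ranged from 0.393 at Ezh1 to 0.936 at Ezh2.

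Kdm6b, the demethylase, differed from the subunits in how much of the gene was marked. It spans 21860 bp on chromosome 11 from 69398508 to 69420367. H3K4me3 intervals covered 46.8% of the span in replicate 1 and 47.5% in replicate 2, H3K9ac 42.8 and 44.4%, H3K27ac 45.3 and 46.0%, and ATAC-seq 11.3 and 15.6%. At the other 8 members, the mean of the replicates was at most 8.09% for H3K4me3 (Phf19), 12.2% for H3K27ac (Ezh1) and 2.82% for ATAC-seq (Eed). All these values of Kdm6b lay above those of the other members by more than the spread between replicates.

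The marked DNA at Kdm6b fell into blocks. Counted from the lower end of the span on the plus strand, a first H3K4me3 interval inside the gene began at 9661 bp in replicate 1 and 9639 bp in replicate 2, with a width of 4231 and 4247 bp. A second one began at 15871 and 15715 bp, with a width of 6226 and 6353 bp, and ended past the upper end of the gene. H3K9ac and H3K27ac divided the second block in both replicates, with a gap between intervals that ended at 17961 and 18003 bp and intervals that began at 18604 and 18548 bp for H3K27ac. The ATAC-seq lists held 6 intervals inside the gene in replicate 1 and 8 in replicate 2. Another H3K4me3 interval of 2610 and 2583 bp, outside the gene, ended 1595 and 1602 bp below the lower end and lay over Cyb5d1, Naa38 and Tmem88. It is the one that touched the start window at the lower end, so the count of Kdm6b at the start rests on the upper end as far as its own DNA goes. There the lncRNA gene Gm51903 overlaps the span, and the signals of both genes cannot be told apart.

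**Figure D2:**
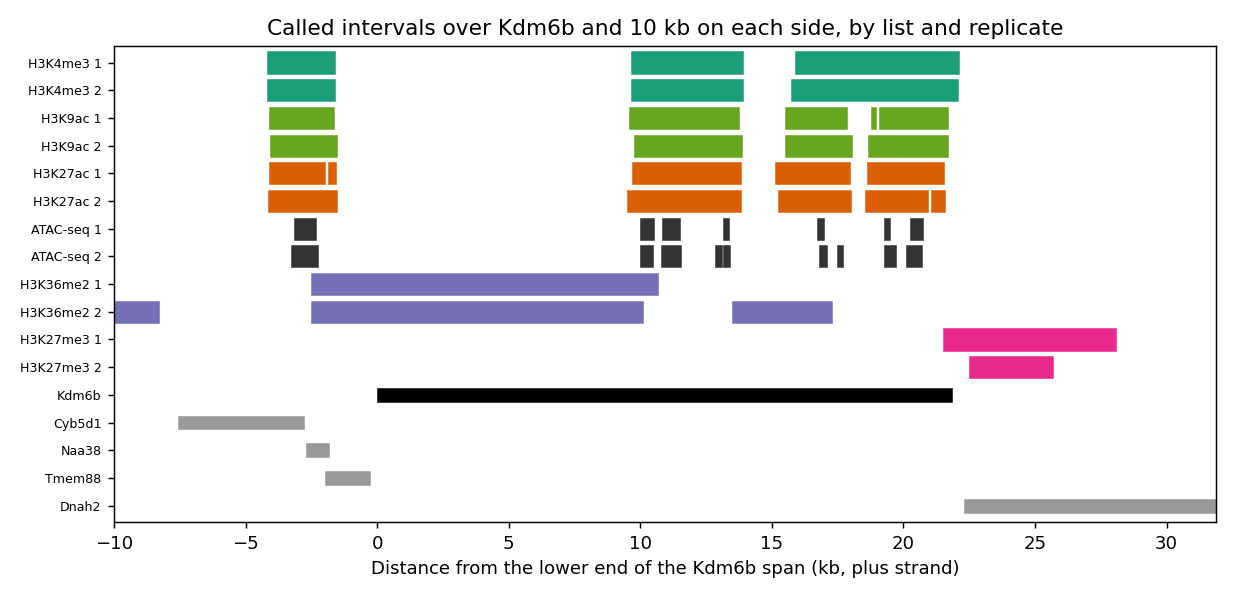
Called intervals over Kdm6b and 10 kb on each side by list and replicate (1 or 2), in kb from the lower end of the span, with the gene in black and neighbouring protein-coding genes in grey. The H3K4me3 intervals inside the gene, 4231 and 6226 bp wide in replicate 1, have an H3K36me2 interval on the left that reaches into the first, in replicate 2 also an H3K36me2 interval of 3799 bp between them that reaches into both, and H3K27me3 on the right, mostly beyond the gene.

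H3K27me3, the product of PRC2, was found in both replicates beside 1 of the 9 members, Kdm6b. The interval was 6599 bp wide in replicate 1, on chromosome 11 from 69420001 to 69426599, and 3199 bp wide in replicate 2, from 69421001 to 69424199. Most of the first and all of the second lay over Dnah2, a dynein gene whose span begins 439 bp beyond that of Kdm6b. In replicate 1 the interval shared 604 bp with the H3K4me3 interval at the upper end of Kdm6b and covered 1.68% of the Kdm6b span. In replicate 2 it shared none, and it did not enter the span. A further H3K27me3 interval of 2199 bp, in replicate 1 only, touched the far edge of the Phf19 window 29977 bp downstream of the start and beyond the gene.

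The windows of the remaining 7 members, Ezh2, Ezh1, Eed, Suz12, Rbbp4, Jarid2 and Mtf2, held no H3K27me3 interval in either replicate. Of all 20661 genes, 65.6% have none in such a window, and of the 9720 genes with H3K4me3 at the start it is 82.3%, so the share among the members is near that of other genes with a marked start. For H3K27me3 at the start in both replicates, 1 of 9 members (Kdm6b) stands beside 11.5% of all genes and 2.6% of those with H3K4me3. In the window in both replicates the 1 member stands beside 25.2% of genes.

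The share of the gene span inside H3K36me2 intervals ranged from 2.89 to 97.4% among the members, as means of the replicates. All 9 had an interval in the window in both replicates, against 55.9% of all genes. The share among genes with H3K4me3 at the start is not given here. Those genes had more of their span in H3K36me2 (median 57.0% against 4.12% over all genes), so the members are not set apart by this count. Ezh1 had 97.0 and 97.7% of its span in H3K36me2 intervals (mean 97.4% ± 0.526, SD, n = 2), with a single interval of 47999 bp in replicate 1. Phf19 had 90.3 and 95.1% (mean 92.7% ± 3.45, SD, n = 2). At the low end, Jarid2 had 4.00 and 1.78% (mean 2.89% ± 1.57, SD, n = 2), all in its last 14 kb, and no base pair was called in both replicates.

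The other members lay between these. Mtf2 had 65.6 and 67.5%, Rbbp4 69.0 and 57.7%, and Kdm6b 48.9 and 63.5%. Ezh2 had 65.5% in replicate 1 and 38.5% in replicate 2, broken into 8 intervals inside the gene in replicate 1 and 7 in replicate 2. Suz12 had 38.0 and 14.6%, and Eed had 7.59 and 42.5%, so the replicates of both disagreed. At Eed, 0.756% of the span was called in both replicates, and the Jaccard index of its window was 0.0153. The order at the ends, with Ezh1 and Phf19 above and Jarid2 below all others, was the same in both replicates. In between, by falling mean, Mtf2, Rbbp4, Kdm6b and Ezh2 each overlapped with the next in their replicate values, as did Suz12 and Eed. Ezh2 and Suz12 did not overlap, but by little (38.5% at the lower end and 38.0% at the upper). Eed, which reached 42.5% in replicate 2, overlapped with Ezh2.

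**Figure D3:**
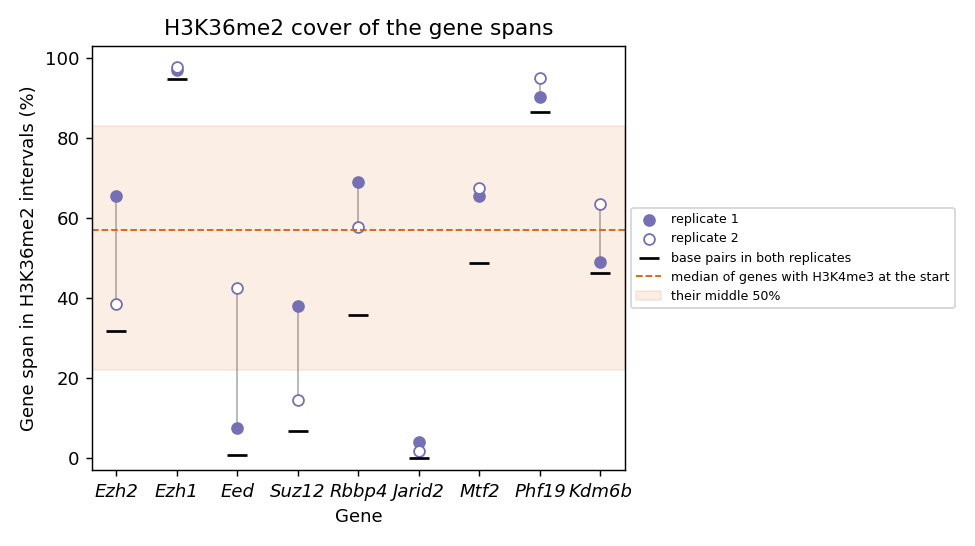
Percent of each gene span inside H3K36me2 intervals, with replicate 1 as filled and replicate 2 as open circles, a line between them and a bar for the base pairs called in both. The dashed line is the median (57.0%) and the band the middle 50% (22.1 to 83.1%) of the 9720 genes with H3K4me3 at the start, and Ezh1 and Phf19 lie above the band and Jarid2 below it in both replicates.

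Over the 9 members, the median share of the span was 65.5% in replicate 1 and 57.7% in replicate 2, against 59.4 and 58.1% over the 9720 genes with H3K4me3 at the start, with the members on both sides of it. The mean of Ezh1 was above that of 95.1% of these genes and that of Jarid2 was above 15.2%. Jarid2 is a long gene, and among the 964 such genes with a span of at least 100 kb, whose median was 47.0%, it was above 11.9%.

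The DNA shared by H3K36me2 and the H3K4me3 at the start differed between the members. At Ezh2, the nearest H3K36me2 interval inside the gene began 108 bp past the edge of the H3K4me3 interval in replicate 1 and 744 bp past it in replicate 2, where 160 bp were shared on the upstream side. At Rbbp4 the shared DNA was 18 and 217 bp, and at Mtf2 it was 138 and 0 bp. Since H3K36me2 intervals lie on bins of 200 bp, gaps and overlaps smaller than this are below the resolution of the calls. This also limits the counts of members that shared no base pair. Of 9 members, 5 shared no base pair between H3K36me2 and the H3K4me3 at the start in replicate 1 and 4 shared none in replicate 2, beside 56.3 and 58.8% of the 9720 genes with H3K4me3 at the start. The largest shares were found at Phf19, with 69.8 and 61.1% of its H3K4me3 interval inside H3K36me2, and at Ezh1 in replicate 2, with 84.4% against 0 in replicate 1. Kdm6b had 10.3 and 27.8%, counted over the H3K4me3 intervals at both ends of its span. All of its shared DNA in replicate 1, and part of it in replicate 2, lay in the interval below the lower end, outside the gene. In replicate 1 the H3K4me3 interval at the upper end of Kdm6b shared no base pair with H3K36me2. At Phf19 the H3K36me2 interval was interrupted, in replicate 2 for 1001 bp around the start, and the ATAC-seq interval of 297 bp in replicate 1 lay outside H3K36me2 altogether, while that of 288 bp in replicate 2 shared 140 bp with it. At Jarid2 the nearest H3K36me2 was 173445 and 182044 bp downstream of the H3K4me3 interval and 118158 and 121170 bp upstream. In the window from 3 kb upstream to 2 kb downstream, 5 of 9 members (Ezh1, Rbbp4, Mtf2, Phf19 and Kdm6b) had H3K36me2 in both replicates, against 30.3% of all genes and 51.9% of those with H3K4me3. The call at Mtf2 in replicate 2 comes from its second start. The call at Kdm6b comes from the lower end of its span in both replicates, and no H3K36me2 interval touched the window at its upper end.

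**Figure D4:**
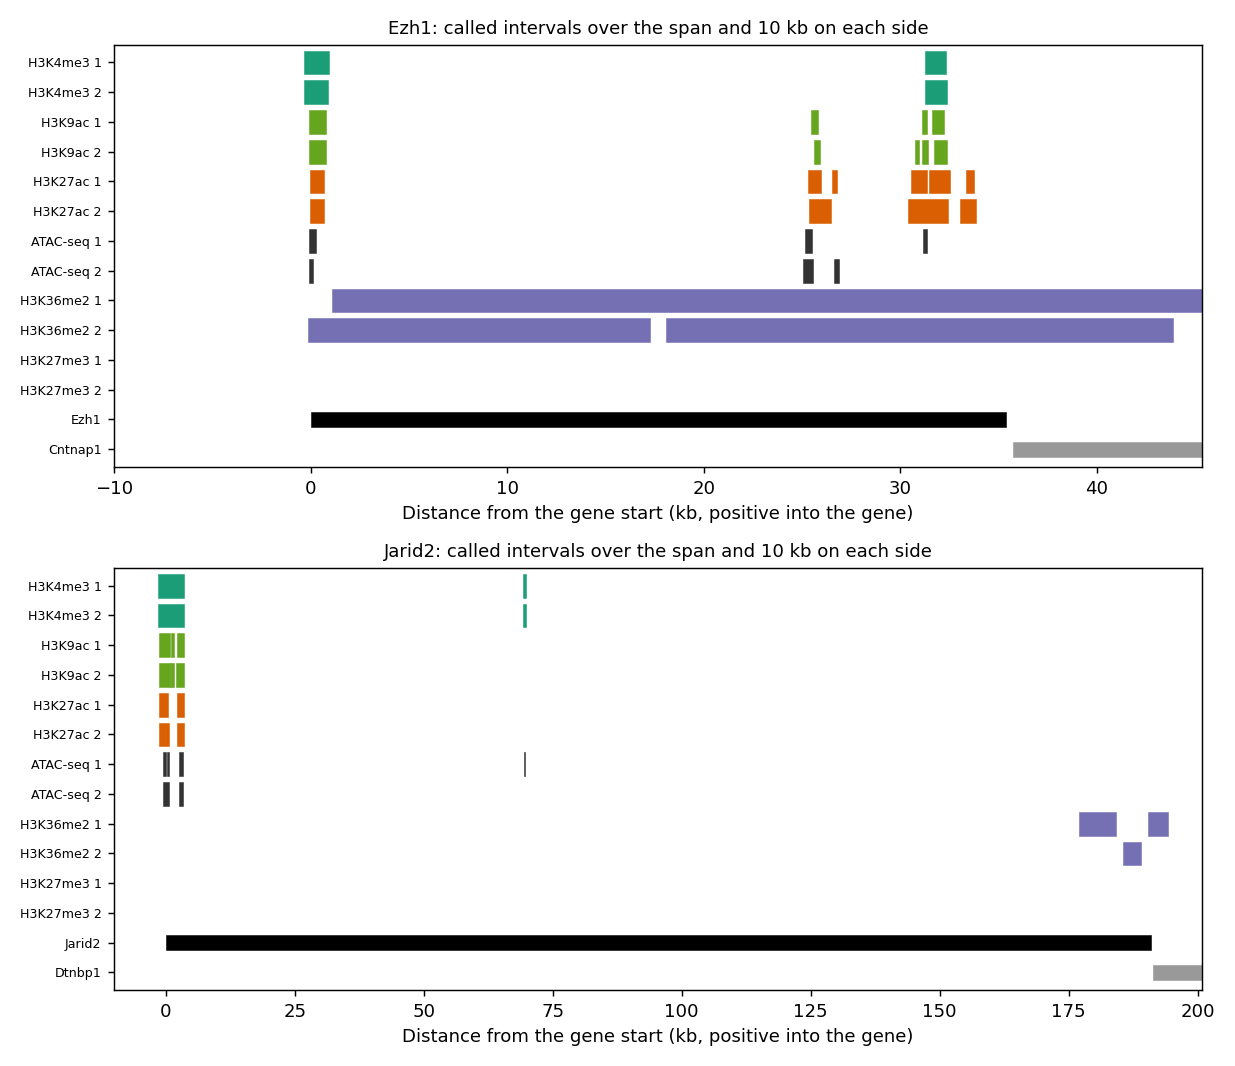
Called intervals over Ezh1 (top) and Jarid2 (bottom) with 10 kb on each side, by list and replicate (1 or 2), in kb from the first gene start, with the gene in black and a protein-coding neighbour in grey. H3K36me2 covers 97.0 and 97.7% of Ezh1 and 4.00 and 1.78% of Jarid2, and Ezh1 has further H3K4me3 and acetylation toward its far end.

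Other Polycomb genes were read from a list of 26, made of 6 further PRC2 accessory genes and 20 genes of PRC1, the complex that binds H3K27me3 and ubiquitylates H2A. H3K4me3, H3K9ac and H3K27ac were each at the start in both replicates for 24 of 26, and ATAC-seq for 23, beside 47, 46.4, 46.7 and 42.4% of all genes. Epop and Pcgf1, which have no start in the promoter table, had none of the 4 at either end, and Phc3 had ATAC-seq in 1 replicate. H3K27me3 was at the start in both replicates for 4 of 26, Lcor, Pcgf5, Phc1 and Phc2, and in 1 replicate for Cbx8. At Pcgf5 it covered 29.8 and 38.9% of the span, and at Phc2 28.7 and 24.4%. At Lcor and Phc1 it did not enter the span, and at Cbx7 it covered 4.34 and 5.78% of the span away from the start. With H3K27me3 at the start, these 4 of 26 stand beside 11.5% of all genes and 2.6% of the genes that have H3K4me3 there. H3K36me2 was at the start in both replicates for 12 of 26, beside 30.3% of all genes and 51.9% of those with H3K4me3 there.

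Likeness of the interval pattern was measured over the 12 libraries as the Euclidean distance of the square root of the percent of the window covered. The genes nearest to Ezh2 were Acsf2, Ginm1 and Zfp940, at distances of 0.344, 0.350 and 0.379. The nearest member was Rbbp4 at 1.05, followed by Mtf2 at 1.15, while Ezh1 was at 2.41. Jarid2 was nearest to Nedd9 (0.634), Nfatc1 (0.799) and Hsd17b6 (0.934). The genes nearest to Kdm6b lay farther off than those nearest to Ezh2 and Jarid2, with H2-DMa, Bcl10 and Mtrf1l at 3.19, 3.43 and 3.58. What distance is usual between a gene and its nearest one was not determined. The other members were at 9.21 (Phf19) to 13.1 (Jarid2) from Kdm6b. The distance describes these 12 lists, in which the replicates of an assay count separately.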

How the data were processed

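The deposited lists give the chromosome, start and end of each interval that the authors called, separately for each of 2 replicates of 6 assays (12 lists from 15 samples), without scores. The other 3 samples, input and RNA-seq, gave no list used here. The authors aligned reads with STAR 2.5, discarded multiple, mitochondrial, X and Y alignments, used Picard against PCR bias, and called H3K4me3, H3K9ac, H3K27ac and ATAC-seq with macs2 and H3K27me3 and H3K36me2 with Epic, against input for ChIP-seq. The labels give GRCm38. Broad intervals lie on bins of 200 bp, which limits their edges.

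Positions were written 1-based and compared with RefSeq spans and starts of GRCm38.p6. Of 20661 autosomal protein-coding genes, 4205 had no listed start, and both span ends were used. The spans give no exons. Covered percent, width (summed over the intervals touching the start window) and overlap were computed per replicate. No test was made, since there is 1 condition. The members and gene lists were chosen with earlier results of these data known. Named were the 9 members, their neighbours, X-linked Kdm6a, Rbbp7 and Bcor, those of 26 other Polycomb genes that differ from the majority of that list, and the 3 genes most alike to Ezh2, Jarid2 and Kdm6b. From the marker gene lists, 1 gene is not reported here. Sequences were read from the promoter table, in which 1948 overlapping pairs of opposite strand were identical as reverse complements. Interval functions were tested on simulated data. Python 3.11.15, numpy 2.4.6, pandas 2.3.3 and matplotlib 3.10.9 were used.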

Additional observations from a re-analysis of the deposited data

Results flagged for a closer look

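The study's methods state that reads on chromosome X were discarded, but the lists hold intervals on it, and the X-linked genes of the pathway were therefore kept out of the counts above. Intervals were present at all 3 that were looked up. Kdm6a (UTX), the other H3K27 demethylase, had an H3K4me3 interval of 3338 bp in replicate 1 and 3139 bp in replicate 2 at its start. Rbbp7, the paralogue of Rbbp4, had 3020 and 2891 bp. Bcor, a subunit of a PRC1 variant, had 3849 and 3676 bp. H3K9ac, H3K27ac and ATAC-seq were at the start of each in both replicates, and H3K27me3 was in none of their windows. H3K36me2 had no interval in the Kdm6a window in either replicate and 1 in that of Rbbp7 in replicate 1 only. At Bcor it covered 8.24 and 2.58% of the span.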

How the results depend on the processing

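No paired analysis was possible because the results come from no test. Of 97 values recomputed under the alternatives for the counts, medians and widths, 89 stayed within 1.5 times of the count or within 1 SD of the replicates. Part of this was fixed in advance. With 2 replicates, either value always lies within 1 SD of their mean. A count of 9 in both replicates cannot change with a replicate left out, with either replicate or with a wider flank. The 89 is therefore no measure of robustness. Members with H3K4me3, H3K9ac and H3K27ac at the start numbered 9 in every alternative tried, and those with ATAC-seq fell from 9 to 6 with intervals of at least 500 bp and to 8 with 1 kb on either side. The number of members with H3K36me2 at the start fell from 5 to 2 when 50% of the shorter interval had to overlap (Mtf2 and Kdm6b) and to 3 with 1 kb on either side (those and Phf19). In both alternatives Mtf2 was counted only by its second start and Kdm6b only by the lower end of its span. H3K27me3 in the window was in 1 member, in 2 with either replicate and in 0 without a flank, leaving out a replicate gave 1 to 2, the second being Phf19 without replicate 2. The median share of the span in H3K36me2 was 61.6%, and it was 35.7% for base pairs in both replicates and 72.3% for those in either, and 57.7 to 65.5% with a replicate left out. The median H3K27ac width fell from 2443 to 2196 bp with 1 kb on either side, since the downstream block of Jarid2 is then not counted. With all autosomal genes in place of protein-coding ones, 27.8% had H3K4me3 at the start, and with coding genes that have a listed start, a set chosen after seeing the data, 47.7% did. The precision of these values is that of 2 replicates, and the depth is unknown.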
